A study of Saccharomyces cerevisiae with 40 samples.

Results

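The first response of GAL-NMD2 yeast to galactose was measured as the change from 0 to 10 min, in 4 arrays at each time out of the 40 arrays of the series. GAL-NMD2 cells lack the chromosomal NMD2 gene, which was disrupted with HIS3 (nmd2::HIS3, strain HFY1400), and carry NMD2 on a plasmid under the galactose-inducible GAL1 promoter. The arrays were chosen by their labels alone: those labelled GAL-NMD2 at 0 min and at 10 min, each pair of arrays with one replicate number being taken as one culture. All 9275 probe sets that are not array controls were compared, out of 9335 on the array. The reference response was that of nmd2D, the same disrupted host with an empty vector, also with 4 arrays at each time. Neither strain has NMD2 at its own locus, so every value is from an nmd2 background, and the NMD2 copy is on a plasmid with a promoter that itself responds to galactose. Cells grew at 30°C without uracil, per the labels, which disagree on the sugar: the series design describes raffinose medium to which galactose was added, but the sample protocols give galactose as the sugar of the medium. The series design calls the replicates independent.

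In Saccharomyces cerevisiae the sensor Gal3 binds galactose and relieves the repression of the activator Gal4 by Gal80. Gal4 then switches on the permease and the enzymes that turn galactose into glucose 1-phosphate. Nmd2, also called Upf2, bridges Upf1 and Upf3 in nonsense-mediated mRNA decay, which degrades mRNAs with early stop codons. The comparison asks what had changed in the RNA shortly after the inducer, before most of the time course had passed. A value is a MAS5 signal, a linear intensity of 1 probe set scaled within its array. Changes are on the log2(signal + 16) scale, which understates those of dim probe sets, and "called" means an adjusted p under 0.05 over all probe sets in limma, with culture as a block. The 8 arrays had median signals from 68.2 to 84.4, and the lowest correlation of an array with another of its group was 0.96 to 0.969.

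NMD2 itself read 983, 959, 1300.0 and 910.1 at 0 min in replicates 1 to 4 and 1120, 1226, 1602 and 1268 at 10 min. It was higher at 10 min in 4 of 4 cultures but the groups overlapped, and the change was not called (log2 0.33, SE 0.11, limma adjusted p = 0.365). The nmd2D arrays, which should lack the intact gene, read 895 ± 34.9 (SD, n = 4) and 877 ± 62.8 at those times, so the probe set also reads signal in the disrupted strain and is a limited check. The change in GAL-NMD2 minus that in nmd2D was log2 0.36 (95% interval 0.04 to 0.67), and was not called (limma adjusted p = 0.998). In GAL-NMD2 the mean then went to 1628 at 20 min and 1654 at 60 min. HIS3, the disruption marker, read 1655 ± 495 at 0 min in GAL-NMD2 and 1655 ± 528 in nmd2D at its brighter probe set. URA3, the plasmid marker, read 317 ± 119 at 0 min in GAL-NMD2 and 2750.3, 687, 942 and 841 in nmd2D replicates 1 to 4, where replicate 1 was far above the others.

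One culture stood apart from the other 3 before galactose. HUG1, a gene of the DNA damage response, read 3470, 35.5, 3952 and 4422 at 0 min and 2783, 30.8, 4067 and 3858 at 10 min in GAL-NMD2 replicates 1 to 4, against at most 44.3 in any nmd2D array at 0 or 10 min. Replicate 2 was therefore at the nmd2D level while replicates 1, 3 and 4 were far above it. RNR3, an inducible subunit of ribonucleotide reductase, showed the same split, with 1211, 111, 596 and 873 at 0 min in GAL-NMD2 and 73.4 to 110.2 in nmd2D. PTC7, a protein phosphatase gene listed as a substrate of nonsense-mediated decay, did not show it: it read 574, 865, 860.2 and 679 at 0 min in GAL-NMD2, all above the 117 to 187 in nmd2D. Neither HUG1 (log2 -0.15, limma adjusted p = 0.807) nor RNR3 (log2 -0.62, limma adjusted p = 0.582) was called between 0 and 10 min. Results are given with replicate 2, and the calls lost without it are named.

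Within 10 min GAL-NMD2 cells had raised the galactose genes up to 19.3-fold, while the rest of the response was small. limma called 28 of the 9275 probe sets (0.302%), of which 22 rose (0.237%) and 6 fell (0.0647%), and an unadjusted p under 0.05 was reached by 667 (7.19%). The 28 belong to 25 genes, and each moved the same way in 4 of 4 cultures, against 18.7% of all probe sets. In 18 of them the 4 values at 10 min did not overlap the 4 at 0 min, which was so for 1.14% of all probe sets, 0.809% with the 10 min values higher and 0.334% with them lower. Only 10 probe sets, called or not, had moved more than 2-fold and 73 more than 1.5-fold. The 5 classes of probe sets by mean brightness, with 1855 in each, held 0, 2, 5, 5 and 16 of the calls from the dimmest to the brightest. Of the probe sets with several gene symbols (328) or none (2443), 0 were called. These counts depend on the model: without the culture block 5 probe sets were called, with only the 8 arrays 12, without replicate 2 19 (17 of the 28), without replicate 3 6 and without replicate 4 12. In bulk RNA fewer cells with a transcript and less of it per cell cannot be told apart.

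The transport step rose most. GAL2, the galactose permease, read 213, 50.2, 163 and 130.4 at 0 min and 2704, 2480.2, 2744 and 2925 at 10 min. Every 10 min value was thus more than 10 times its own 0 min value, and the groups were far apart (19.3-fold, log2 4.27, SE 0.22, limma adjusted p = 1.08e-14). Relative to the mean, the spread between cultures was wide at 0 min and narrow at 10 min, with means of 139 ± 68.2 and 2713 ± 183 (SD, n = 4).

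The 3 enzymes of the Leloir pathway rose nearly as much. GAL1, the galactokinase, read 78.8, 75.5, 179 and 99.9 at 0 min and 1923, 1074, 1877 and 1150.1 at 10 min (12.4-fold, log2 3.63, SE 0.18, limma adjusted p = 6.09e-15). Its 10 min values formed a higher pair, replicates 1 and 3, and a lower pair, replicates 2 and 4. GAL10, the epimerase, read 90.4, 56.3, 177 and 155 at 0 min and 1829, 1446, 1586 and 1623 at 10 min (12.9-fold, log2 3.69, SE 0.19, limma adjusted p = 1.08e-14). GAL7, the uridylyltransferase, read 192, 64.6, 204 and 309 at 0 min and 2083, 1612, 1677 and 1980 at 10 min (9.90-fold, log2 3.31, SE 0.28, limma adjusted p = 1.58e-09). No value of these genes at 10 min came near one at 0 min. Replicate 2 had the lowest 0 min value of all 4 genes and the lowest 10 min value too. GAL7, GAL10 and GAL1 are neighbours on their chromosome. The genes that flank them were not called: the nuclear import factor gene KAP104 changed by log2 0.02 (limma adjusted p = 0.999) and the uracil permease gene FUR4 by log2 0.51 (limma adjusted p = 0.694).

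The regulators moved less. GAL3, the galactose sensor, read 170.1, 93.3, 139.7 and 126 at 0 min and 583, 375, 398 and 441 at 10 min (3.15-fold, log2 1.65, SE 0.17, limma adjusted p = 1.9e-07). GAL80, the repressor that Gal3 binds, read 521, 372, 354 and 382 at 0 min and 797, 593, 655 and 625 at 10 min (1.62-fold, log2 0.70, SE 0.10, limma adjusted p = 0.000122). For both genes all 4 values at 10 min lay above all 4 at 0 min. GAL4, the activator, read 98.0, 69.7, 38.7 and 84.1 at 0 min and 66.5, 60.5, 44.8 and 83.1 at 10 min, with overlapping groups (log2 -0.12, SE 0.14, limma adjusted p = 0.928). PGM2, the main phosphoglucomutase, read 668, 424, 423 and 522 at 0 min and 1273, 839, 408 and 667 at 10 min. It was higher in 3 of 4 cultures and not called (log2 0.54, SE 0.30, limma adjusted p = 0.75). PGM1, the minor phosphoglucomutase, and UGP1, which makes UDP-glucose, each had a log2 change of 0.09, with limma adjusted p = 0.938 and limma adjusted p = 0.951. Of the 10 galactose genes listed, 6 rose and 0 fell, with a median log2 change of 1.18 against 0.01 over all probe sets.

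**Figure D1:**
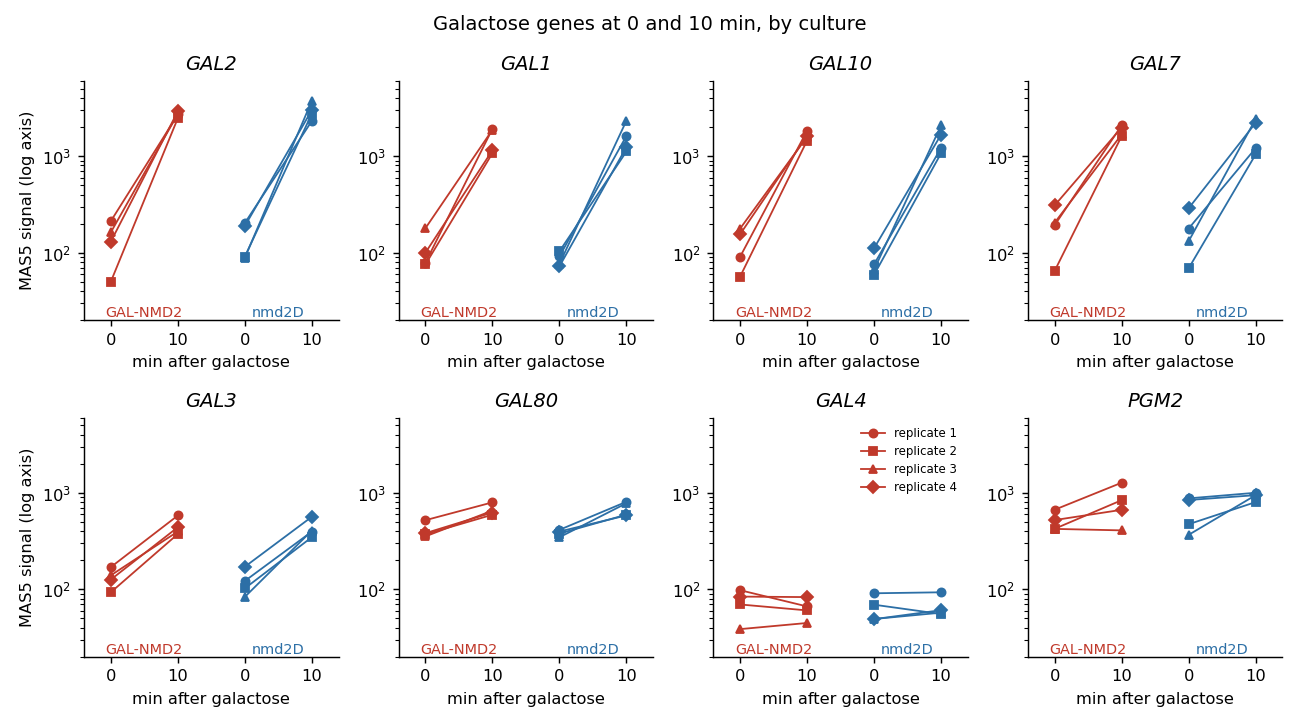
MAS5 signal (log axis) of 8 galactose genes at 0 and 10 min, with a line for each culture and a marker shape for each replicate, GAL-NMD2 in red and nmd2D in blue. GAL2, GAL1, GAL10, GAL7, GAL3 and GAL80 were higher at 10 min in 4 of 4 cultures of both strains, whereas GAL4 stayed between 38.7 and 98.0 in GAL-NMD2.

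Of 7 other genes known to be bound by Gal4, 0 were called and 6 had a change above 0, with a median log2 change of 0.14. The largest change among them was that of GCY1, an aldo-keto reductase gene, which read 1015, 957, 1019 and 1039 at 0 min and 1772, 1073, 1617 and 1747 at 10 min. Its groups did not overlap, though replicate 2 moved little (log2 0.59, SE 0.15, limma adjusted p = 0.111). Hexose transport, phosphorylation and sensing genes had 0 calls among 22, with a median of 0.01. HXT5, a hexose transporter of slowly growing cells, had the largest change among these (log2 0.57, limma adjusted p = 0.273).

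Outside the galactose genes 16 probe sets of 13 genes rose by 1.45 to 2.72-fold, and among these were members of the stress lists. All 16 calls depended on replicate 3 and on the culture block: without either, none of them was called, and the 6 probe sets still called without replicate 3 were the galactose genes. GRE2, a methylglyoxal reductase, read 46.0, 66.0, 32.5 and 48.9 at 0 min and 84.3, 135, 131 and 90.1 at 10 min. All 4 values at 10 min exceeded all 4 at 0 min (1.96-fold, log2 0.97, SE 0.15, limma adjusted p = 0.00043). HSP12, which encodes a membrane-associated stress protein, read 1221, 751, 694 and 1315 at 0 min and 1682, 1648, 2260 and 1986 at 10 min (1.95-fold, log2 0.96, SE 0.16, limma adjusted p = 0.00179). Its smallest change was in the cultures that began highest, replicates 1 and 4. HSP26, a small heat shock protein gene, read 149.5, 68.9, 64.1 and 111 at 0 min and 294, 107, 179.6 and 253 at 10 min (log2 0.95, SE 0.18, limma adjusted p = 0.006). Here the groups overlapped because replicate 2 at 10 min was below replicates 1 and 4 at 0 min.

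GRE3, an aldose reductase, read 602, 483, 464 and 788 at 0 min and 869, 803, 963 and 1073 at 10 min, without overlap (1.60-fold, log2 0.68, SE 0.13, limma adjusted p = 0.00922). MSC1 read 528, 281, 354 and 322 at 0 min and 812, 520.2, 768 and 786 at 10 min (log2 0.95, SE 0.18, limma adjusted p = 0.00632). Only its replicate 2 at 10 min fell within the 0 min range. YRO2, which encodes a membrane protein related to Hsp30, read 264, 424, 211 and 442 at 0 min and 584, 864, 473 and 776 at 10 min, without overlap (2.00-fold, log2 1.00, SE 0.17, limma adjusted p = 0.00273). YPR1, an aldo-keto reductase gene chosen after its values were seen, rose by log2 0.53 (limma adjusted p = 0.0291). GRE3 and YPR1 were no longer called without replicate 2.

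Of 38 genes of the environmental stress list, HSP12 and HSP26 rose and 0 fell, and the median log2 change was 0.29 against 0.01 over all probe sets. Most of the others had a change in the same direction that was not called: 32 of 38 were above 0, against 52.4% of all probe sets, and 23 were higher in 4 of 4 cultures, against 9.54%. The catalase gene CTT1 (log2 0.74, limma adjusted p = 0.111) and the aldehyde dehydrogenase gene ALD3 (log2 0.69, limma adjusted p = 0.162), both chosen after their values were seen, had the largest changes after the called genes. In nmd2D the list had a median of 0.34, and 25 of its genes were higher in 4 of 4 cultures, against 7.39% of all probe sets. The GAL-NMD2 median stayed between 0.25 and 0.34 under all alternatives tried, and was 0.19, 0.41, 0.42 and 0.29 in replicates 1 to 4.

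Of 19 osmotic stress and glycerol genes 4 rose (GRE2, HSP12, MSC1 and GRE3) and 0 fell, with a median of 0.29. HSP12 and ALD3 stand on both of these lists. The genes of glycerol making and uptake on that list were not among the rises. GPD1, the glycerol 3-phosphate dehydrogenase gene, changed by log2 -0.45 (limma adjusted p = 0.381) and was lower in 4 of 4 cultures. STL1, the glycerol symporter, changed by log2 -0.53 (limma adjusted p = 0.378) and was higher in 1 of 4 cultures. Other glycerol genes changed less and in both directions: GPP1 by log2 -0.18, GPP2 by 0.11 and FPS1 by 0.08, none of them called. All of these were chosen after their values were seen. Among 23 heat shock and chaperone genes HSP26 rose, 0 fell, and the median was 0.10. Among 17 trehalose and glycogen genes 0 were called, with GPH1, the glycogen phosphorylase gene, at log2 0.62 (limma adjusted p = 0.161).

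The other rises were of mixed kinds. FAR1, an inhibitor of the cyclin-dependent kinase in pheromone arrest, had the largest change outside the galactose genes and the widest spread. It read 218, 67.3, 50.2 and 53.9 at 0 min and 797, 111, 316 and 128 at 10 min (2.72-fold, log2 1.44, SE 0.28, limma adjusted p = 0.00922). Replicate 1 was the highest at both times, and the values of replicates 2 and 4 at 10 min lay below its 0 min value. FAR1 was the only called gene of 14 haploid and mating genes, whose median was -0.01. SDD1 read 159.7, 60.7, 92.1 and 107 at 0 min and 345, 172, 222 and 210.4 at 10 min, without overlap (2.12-fold, log2 1.09, SE 0.21, limma adjusted p = 0.00922), a call that was lost without replicate 2.

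TKL2, the minor transketolase of the pentose phosphate pathway, was called at all 3 of its probe sets. The one with the smallest p read 22.2, 40.9, 27.1 and 54.4 at 0 min and 76.7, 79.1, 82.9 and 110.4 at 10 min, without overlap (2.02-fold, log2 1.02, SE 0.18, limma adjusted p = 0.00277). The others changed by log2 0.97 and 1.02, and the call of the latter was lost without replicate 2. VTS1, an RNA-binding protein gene chosen after its values were seen, read 118, 118, 89.6 and 55.9 at 0 min and 198, 193, 140.4 and 137 at 10 min, without overlap (log2 0.75, limma adjusted p = 0.00632).

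NOG2, a GTPase of large ribosomal subunit assembly, read 153, 315, 497 and 164 at 0 min and 236, 539, 647 and 459 at 10 min (log2 0.77, SE 0.16, limma adjusted p = 0.0227). Its groups overlapped, its call was lost without replicate 2, and its second, dimmer probe set was not called (log2 0.48, limma adjusted p = 0.296). NOG2 was the only called gene of 90 ribosome biogenesis genes. UTP20, a component of the small-subunit processome, was called at 2 of its 10 probe sets, both dim, and was chosen after its values were seen. The one with the larger change read 7.2, 7.8, 7.0 and 4.8 at 0 min and 16.9, 32.9, 14.4 and 15.2 at 10 min (log2 0.63, limma adjusted p = 0.0281), a call lost without replicate 2, whereas its brightest probe set changed by log2 -0.16 (limma adjusted p = 0.935). The probe sets of UTP20 thus disagree. Its 2 called probe sets are among the 16 counted as rises, but the direction of the gene is uncertain.

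The falls were 6 genes, lower by 1.30 to 1.76-fold. YLR108C read 56.2, 77.1, 99.5 and 134.8 at 0 min and 41.0, 32.4, 49.1 and 51.2 at 10 min, and was the only one whose groups did not overlap (log2 -0.82, SE 0.17, limma adjusted p = 0.021). MPC3, a subunit of the mitochondrial pyruvate carrier, read 1194, 1189, 1264 and 2057 at 0 min and 511, 837, 726 and 1326 at 10 min (log2 -0.78, SE 0.16, limma adjusted p = 0.021). Replicate 4 was the highest at both times and caused the overlap, since its 10 min value exceeded the other cultures' 0 min values. ISF1 read 1239, 345, 481 and 996 at 0 min and 519.6, 209, 316 and 645 at 10 min (log2 -0.78, SE 0.16, limma adjusted p = 0.0191). Its 0 min values differed more between cultures than they changed with time.

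CAR1, the arginase that starts arginine breakdown, read 1367, 735, 918 and 1348 at 0 min and 949.6, 481, 559 and 907 at 10 min (log2 -0.59, SE 0.11, limma adjusted p = 0.00632). The 4 changes were alike although the levels overlapped. YLR177W read 418, 213, 218 and 322 at 0 min and 284, 121, 109.9 and 205 at 10 min (log2 -0.70, SE 0.15, limma adjusted p = 0.0281). COX26, which encodes a protein bound to cytochrome oxidase, read 1634, 1240.0, 906 and 1761 at 0 min and 1178, 1031, 747 and 1251 at 10 min (log2 -0.37, SE 0.08, limma adjusted p = 0.0323). CAR1, YLR177W, COX26, MPC3 and YLR108C were no longer called without replicate 2, and none of the 6 falls was called without replicate 3 or without replicate 4. Beyond the calls, the largest changes downward without overlap were those of RPL31B, a ribosomal protein gene (log2 -0.41, limma adjusted p = 0.504), GAT1, an activator of nitrogen catabolite genes (log2 -0.41, limma adjusted p = 0.29), GAR1, a snoRNP protein gene (log2 -0.40, limma adjusted p = 0.53), and YHR020W (log2 -0.40, limma adjusted p = 0.42).

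**Figure D2:**
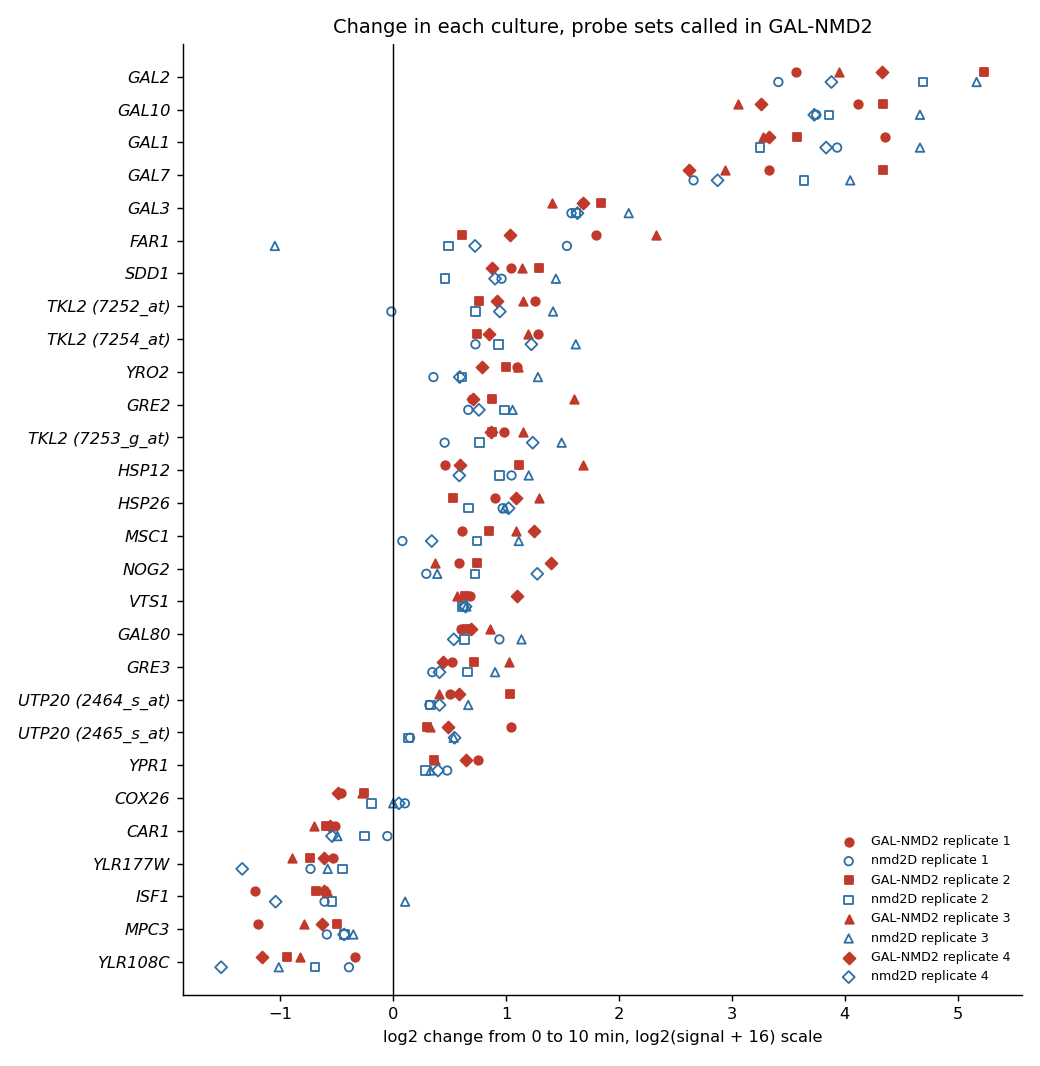
Change from 0 to 10 min in each culture, on the log2(signal + 16) scale, for the 28 probe sets called in GAL-NMD2, with filled red markers for GAL-NMD2 and open blue markers for nmd2D and one marker shape per replicate. All 28 lie on one side of 0 in the 4 GAL-NMD2 cultures, 24 also do so in the 4 nmd2D cultures, and the FAR1 markers are the most widely spread outside the galactose genes.

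The culture with the largest change differed between probe sets. Among the 22 called probe sets outside the galactose genes, the largest change was that of replicate 3 in 9, of replicate 1 in 6, of replicate 4 in 5 and of replicate 2 in 2. All 22 calls were lost without replicate 3, so their choice favours that culture. The 2 arrays of replicate 3 also had the highest actin 3-prime to 5-prime ratios, a sign of RNA quality, within a range of 1.38 to 2.95 over the 8 arrays. In nmd2D replicate 3 had the largest change in 17 of the 28 probe sets called in GAL-NMD2, and its actin ratios, 2.36 at 0 min and 2.43 at 10 min, were the highest of the 8 nmd2D arrays of those times. The share of all probe sets with their largest change in replicate 3 was not counted for either strain. The part of RNA quality in these changes was not tested.

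In the other lists most members were not called. Of the 35 lists, 8 had a called member and 27 had none, with medians from -0.19 to 0.14 in the latter. Amino acid genes under general control, which Gcn4 activates, gave 0 calls among 26, but 1 had a change above 0 and 14 were lower in 4 of 4 cultures, against 9.18% of all probe sets. Their median was -0.19 and lay between -0.15 and -0.22 in the 4 cultures. HIS1, the first enzyme of histidine synthesis, had the largest change of these (log2 -0.38, limma adjusted p = 0.399). In arginine metabolism CAR1 fell, 0 of 13 rose and the median was -0.23. Of 81 cytosolic ribosomal protein genes 0 were called, 27 were lower and 2 higher in 4 of 4 cultures, and the median was -0.12, with RPL7B at log2 -0.38 (limma adjusted p = 0.759).

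The lists of central carbon metabolism, which do not hold TKL2 or MPC3, gave 0 calls. Glycolysis genes (16) had a median of -0.09 that became 0.03 under quantile normalization, and ENO2, an enolase gene, was at log2 -0.28 (limma adjusted p = 0.692). Gluconeogenesis and glyoxylate genes (20) had a median of 0.14 and tricarboxylic acid cycle genes (15) one of 0.11. The gluconeogenic phosphatase gene FBP1 was at log2 0.41 (limma adjusted p = 0.855) and KGD2, a subunit of the 2-oxoglutarate dehydrogenase, at log2 0.25 (limma adjusted p = 0.201). Respiratory chain and ATP synthase genes (30) had a median of 0.05. COX26, the one respiratory gene that fell, was not on that list.

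Among the cell cycle lists, G1 and S phase genes (23) had a median of -0.11, mitotic and early G1 genes (15) one of -0.04 and the 4 measured histone genes one of -0.17. Meiosis genes (16) were at 0.01, MATa-specific genes (7) at -0.08 and MATalpha-specific genes (5) at -0.04. For nutrient genes the medians were -0.04 in pyrimidine synthesis and uptake (16), 0.00 in sulfur and methionine (23), -0.02 in nitrogen catabolite genes (23), 0.01 in phosphate genes (14), -0.08 in iron, copper and zinc genes (28) and 0.09 in maltose genes (6). The 9 ribonucleotide reductase and damage genes had a median of -0.15 and 0 changes above 0. GRE2 was the only called gene of the 14 aryl-alcohol dehydrogenase and oxidative genes, whose median was 0.03, and 0 of 16 PAU, DAN and TIR cell wall genes were called, with a median of -0.01.

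**Figure D3:**
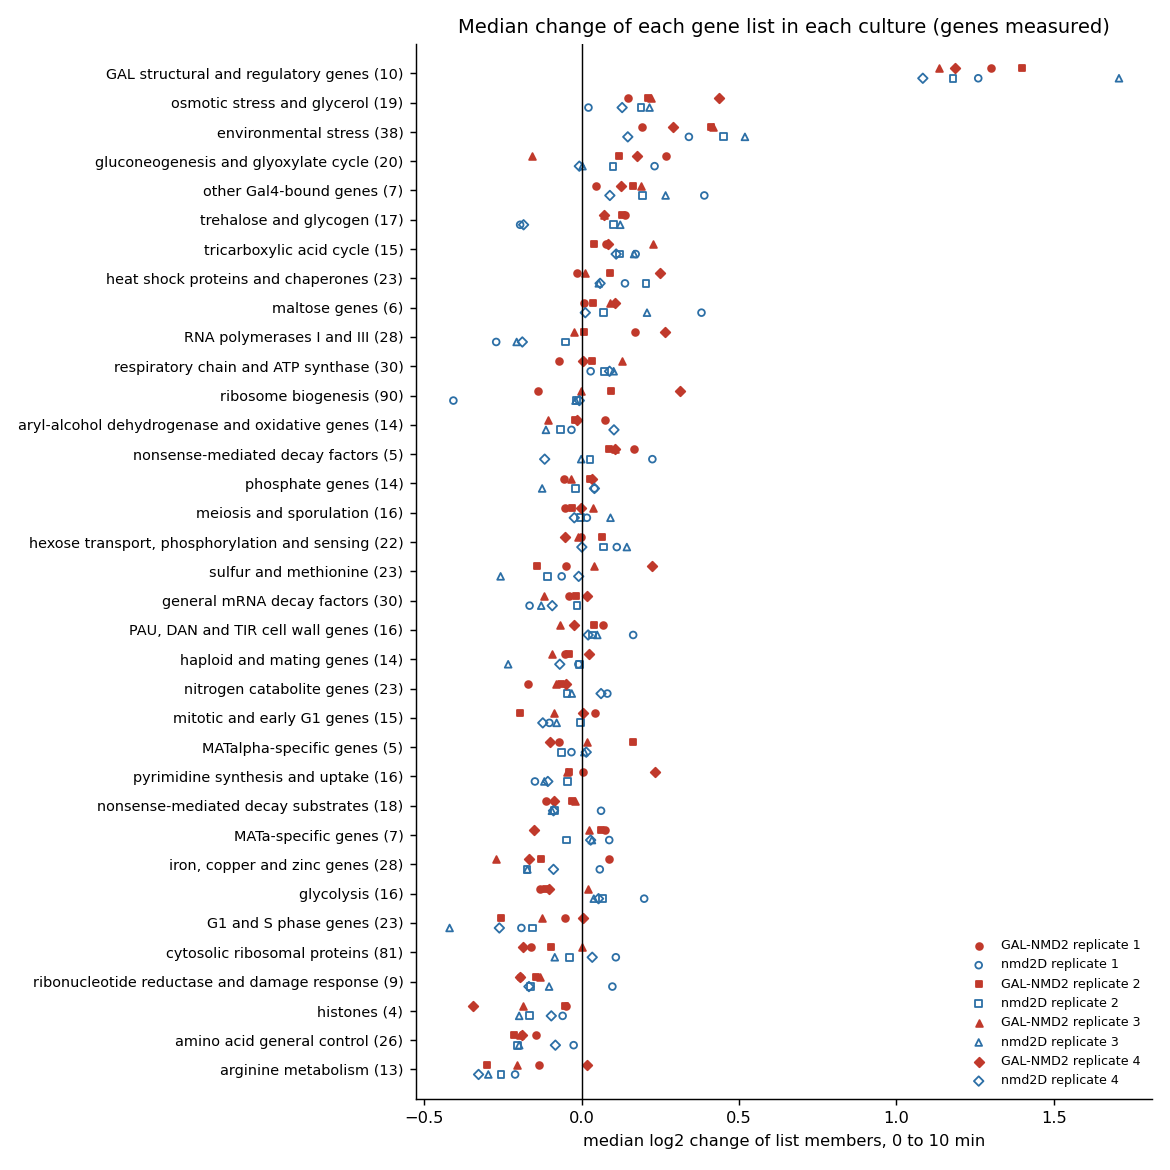
Median log2 change from 0 to 10 min of the measured members of each of 35 gene lists, in each culture, with filled red markers for GAL-NMD2, open blue markers for nmd2D and the number of genes in parentheses. The galactose list stands near 1.18, the environmental stress list near 0.29 and the general control list near -0.19 in GAL-NMD2.

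Genes of nonsense-mediated mRNA decay gave 0 calls at 10 min. Of 18 measured genes listed as substrates of this decay, 7 had a change above 0, against 52.4% of all probe sets. Their median log2 change was -0.05, and 4 (CPA1, EST3, ADE2 and PTC7) were lower in 4 of 4 cultures, against 9.18%. In nmd2D 3 of the 18, PTC7 among them, were lower in 4 of 4 cultures, against 15.4%. CPA1, whose upstream reading frame makes its mRNA a substrate, had the largest change, from 3101 ± 930 to 2562 ± 802 (log2 -0.28, SE 0.11, limma adjusted p = 0.533). PTC7 read 376, 848, 832 and 577 at 10 min (log2 -0.22, SE 0.16, limma adjusted p = 0.854), and its mean went on to 479 at 20 min and 289 at 60 min. By locus name PTC7 (YHR076W) lies beside the disrupted NMD2 gene (YHR077C). Its mean at 0 min was already 745 in GAL-NMD2 against 150 in nmd2D. What part its place beside NMD2 has in these levels was not tested. Factors of nonsense-mediated decay (5) had a median of 0.03 and general mRNA decay factors (30) one of 0.00, with PAN3, a deadenylase subunit, at log2 0.37 (limma adjusted p = 0.762). The median of the substrates in nmd2D was -0.04.

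**Figure D4:**
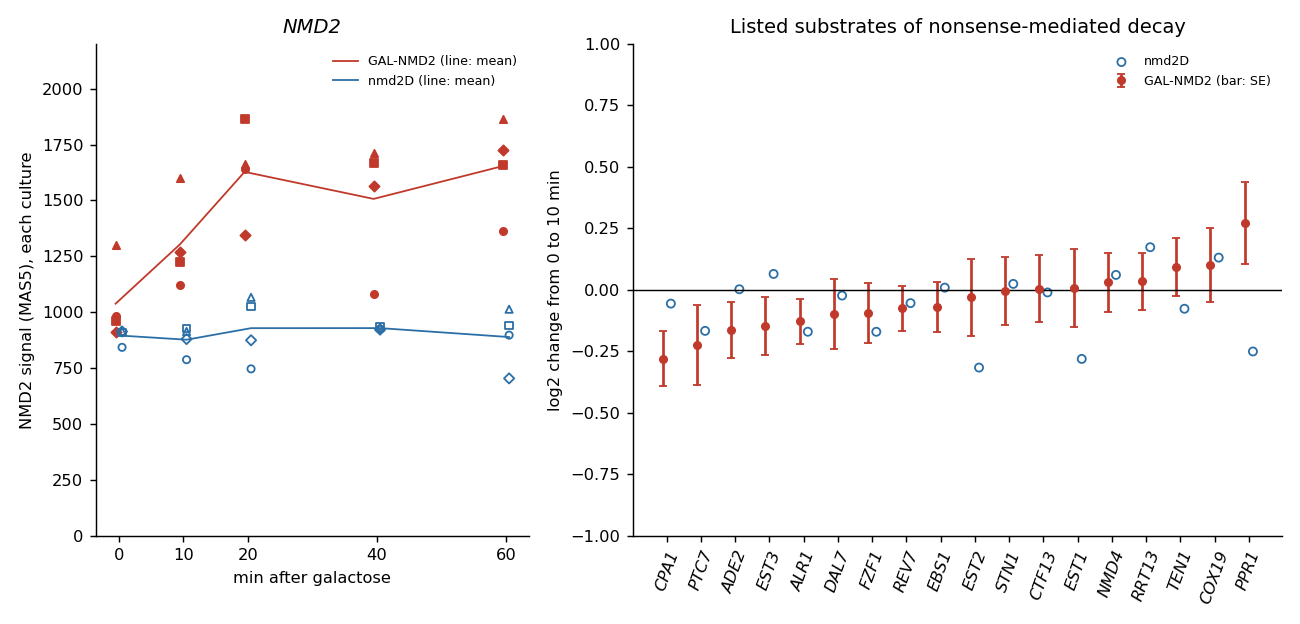
Left, NMD2 signal in each culture over 60 min, with circles, squares, triangles and diamonds for replicates 1 to 4, lines for the means, GAL-NMD2 in red and nmd2D in blue. Right, log2 change from 0 to 10 min of the 18 listed substrates of nonsense-mediated decay, with bars for the SE in GAL-NMD2. The NMD2 mean in GAL-NMD2 went from 1038 to 1304 by 10 min, while the substrates lay between -0.28 and 0.27.

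The genes called in GAL-NMD2 had mean changes of the same sign in nmd2D, though COX26 changed there by only log2 -0.01. In nmd2D limma called 24 probe sets (0.259%), 16 higher (0.173%) and 8 lower (0.0863%). Of the 28 probe sets called in GAL-NMD2, 16 (15 genes) were also called in nmd2D and 28 had the same sign there, against 57.9% of all probe sets. In 24 of them all 4 nmd2D cultures moved that way, against 15.3%. These comparisons use separate arrays at both times, but one estimate of the error. The titles also give both strains the same replicate letters, A to D, without saying what a shared letter stands for. The main fit did not pair the strains by it. Whether the changes of the strains are independent was not tested, so their agreement is not shown to be independent replication. The share of the nmd2D list that was also called in GAL-NMD2 was 16 of 24. Of the other 8 in nmd2D, STL1 fell most, by log2 1.12 (limma adjusted p = 0.000882), followed upward by the stress gene DDR2 at log2 0.88 (limma adjusted p = 0.0448), and both had the same sign in GAL-NMD2.

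The difference between the strains in their changes was called for 0 of 9275 probe sets by limma, and 444 (4.79%) had an unadjusted p under 0.05. For GAL2 the change was log2 4.27 in GAL-NMD2 and 4.29 in nmd2D, a difference of -0.02 with a 95% interval from -0.67 to 0.63. For GAL1 the difference was -0.29 (-0.81 to 0.23), for GAL10 -0.31 (-0.87 to 0.25), for GAL7 0.00 (-0.80 to 0.80), for GAL3 -0.07 (-0.57 to 0.42) and for GAL80 -0.11 (-0.40 to 0.17). These intervals leave room for differences of over 1.5-fold in the 4 genes that rose most, so like induction is not shown, only that no difference was detected. Over the called probe sets the bounds ran from -0.87 to 1.83.

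Intervals that exclude 0 were found for 2 of the 28, against 4.79% of all probe sets. The 28 were chosen by the change in GAL-NMD2, which is itself part of this difference, and 19 of them changed more in GAL-NMD2. A larger change in GAL-NMD2 among them can thus follow from the choice. FAR1 changed by log2 1.44 in GAL-NMD2 and 0.43 in nmd2D, where replicate 3 moved downward and the other 3 upward (difference 1.02, 0.20 to 1.83). COX26 changed by log2 -0.37 and -0.01 (difference -0.36, -0.60 to -0.12). Neither difference was called (limma adjusted p = 0.998 for both). Ribosome biogenesis genes had a median change of 0.05 in GAL-NMD2 and -0.10 in nmd2D, and 77 of 90 had a change in GAL-NMD2 above that in nmd2D, as did 61.2% of all probe sets. In nmd2D 21 of the 90 were lower in 4 of 4 cultures, against 15.4%. The medians in the 4 cultures were -0.14, 0.09, 0.00 and 0.31 in GAL-NMD2 and -0.41, -0.02, -0.02 and -0.01 in nmd2D. At each replicate number the GAL-NMD2 median was the higher one, a difference that was not tested. The GAL-NMD2 median turned to -0.04 without replicate 4. For RNA polymerases I and III the medians were 0.09 and -0.16, with 25 of 28 genes above the change in nmd2D and the GAL-NMD2 median higher at each replicate number, and RPC82, a subunit of polymerase III, was at log2 0.56 in GAL-NMD2 (limma adjusted p = 0.43) and -0.25 in nmd2D.

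The later arrays of the GAL-NMD2 cultures give the levels that followed these early changes. What part the induced NMD2 has in the later levels was not tested. The means of the 6 galactose genes were all higher at 20 and at 60 min than at 10 min: GAL2 went to 4559 ± 914 at 20 min and 4846 ± 643 at 60 min, and GAL80 to 828 ± 160 and 1127 ± 112. GAL3 went to 617 and 745. Of the 16 other rises, 11 had a lower mean at 20 min than at 10 min, and 8 were lower at 60 min than at 10 min in 4 of 4 cultures. In nmd2D the same counts were 6 and 8. The 16 were chosen for their rise at 10 min in GAL-NMD2, so lower values afterwards can follow in part from that choice. The share over all probe sets was not counted.

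GRE2 returned from 110.1 ± 26.6 at 10 min to 48.9 ± 23.4 at 60 min, near its 48.3 ± 13.8 at 0 min. HSP12 first went on to 2446 ± 313 at 20 min and was at 1048 ± 301 at 60 min. MSC1 ended at 164 ± 32.4, below its 371 ± 109 at 0 min, and the TKL2 probe set with the smallest p at 24.4 ± 6.18. In contrast FAR1 was at 675 ± 565 and VTS1 at 219 ± 79.9 at 60 min, both above their 10 min means. All 6 genes that had fallen still had a mean below the 0 min level at 60 min, among them YLR108C at 54.0 ± 19.9 and MPC3 at 953 ± 419, but CAR1 was back at 1084 ± 256 against 1092 ± 316 at the start. In nmd2D the 60 min means of all 6 were below their 0 min means too. At 20 min 6 of them were below their 10 min means in nmd2D, and 1 in GAL-NMD2. The falls were chosen by their 0 and 10 min values, so a later mean below the 0 min level can follow from that choice. These later values are given as levels, without a test.

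**Figure D5:**
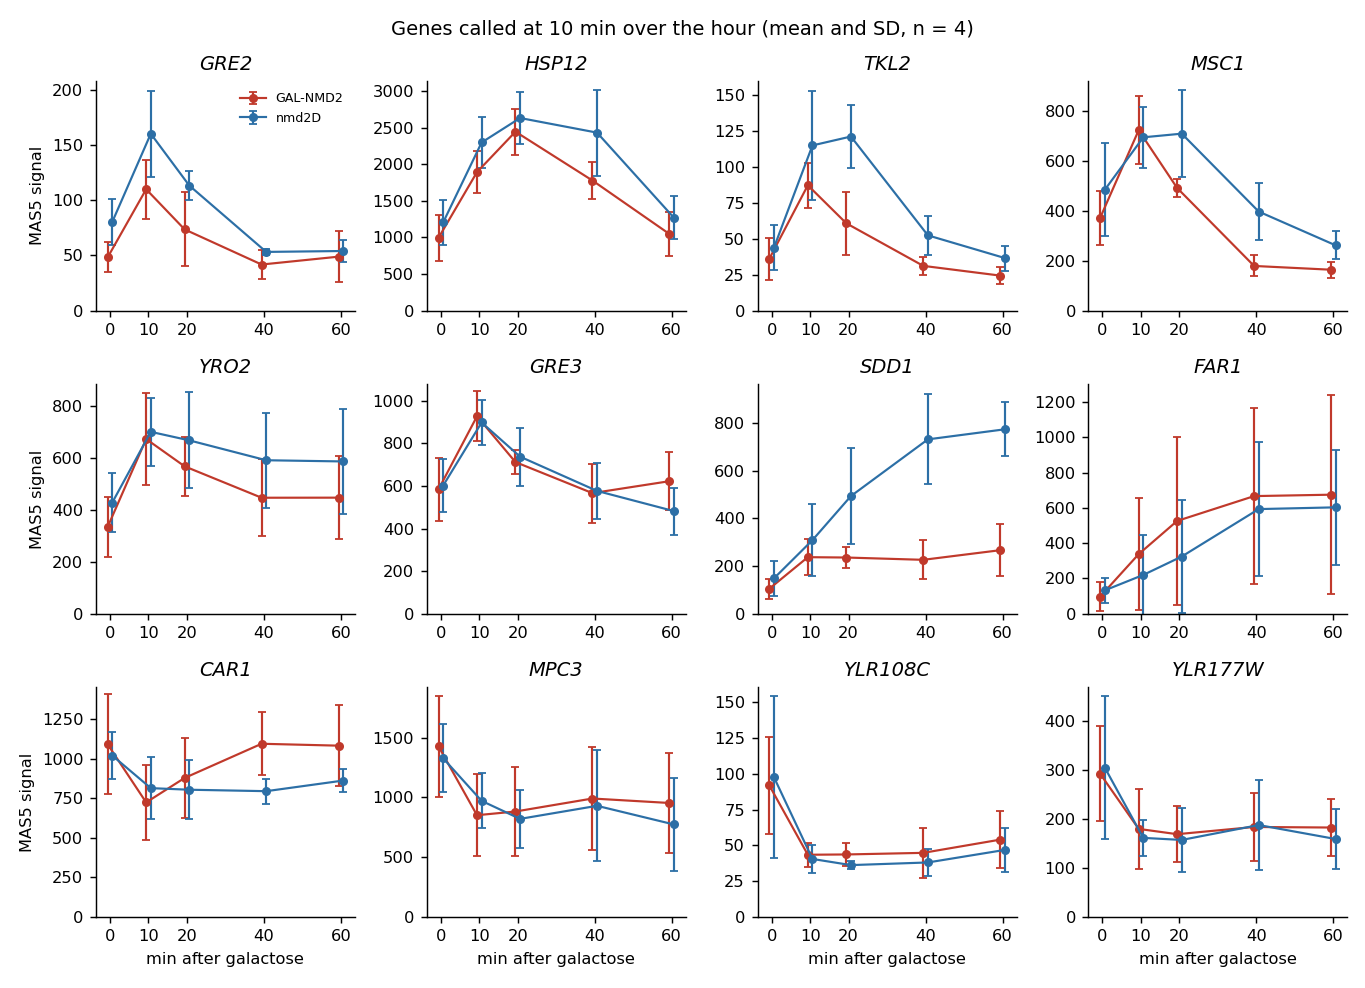
MAS5 signal over 60 min after galactose (mean and SD, n = 4; bars that reach below 0 are clipped at the axis) of 12 genes called at 10 min in GAL-NMD2, shown in red for GAL-NMD2 and blue for nmd2D. GRE2, HSP12, TKL2 and MSC1 peak at 10 or 20 min and come down, FAR1 goes on upward, and MPC3, YLR108C and YLR177W stay below their 0 min means.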

How the data were processed

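The authors deposited a MAS5 signal intensity for each probe set, per the submitters' processing notes. Which version and settings of MAS5 they used is not stated there, and detection calls were not used. Intensities are linear, and the authors' values carry a scaling of every array to one trimmed mean, as the values show, so each level is relative to its own array. The number of arrays limits the precision. Names come from the platform annotation, updated through the R64 gene table, which also gave the order of neighbouring genes. Sequences were not used.

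Values were transformed as log2(intensity + 16). limma 3.58.1 in R 4.3.3 was run on all 40 arrays with a mean per group (10 groups) and each of the 8 cultures (strain and replicate number) as a block (lmFit, eBayes with trend). Benjamini-Hochberg adjustment ran over all 9275 probe sets, and an adjusted p under 0.05 was called. Comparisons were 10 against 0 min in GAL-NMD2, in nmd2D, and their difference. The p-values measure the residual spread within cultures, pooled over the 40 arrays of both strains and all 5 times and moderated by eBayes. They do not measure the spread of the paired changes from 0 to 10 min alone. A probe set therefore has the same SE in both strains. The replicate numbers in the titles were taken to pair the times: deviations from group means correlated between 0 and 10 min with r = 0.684 to 0.798 for the same number in GAL-NMD2, at most 0.114 for other numbers. The fit was tested on simulated data.

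Gene lists (35) used the brightest probe set of each gene and are described by counts and medians. The members and lists were chosen with earlier results of these data known. Named genes were the 15 largest called rises and falls that moved one way in 4 of 4 cultures, then uncalled falls without overlap, up to 4 called members of each list or its largest uncalled change, NMD2, HIS3, URA3, PTC7, HUG1 and the galactose genes. Alternatives changed the block, arrays, scaling, pseudocount, filter, variance prior and replicates.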

Additional observations from a re-analysis of the deposited data

Results flagged for a closer look

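Single values lay far from the other 3 of their group in 7 of 102 groups of 4 values tested over 34 probe sets. This count is near the about 1 in 20 that chance alone gives, and it holds HUG1 in replicate 2 at both times. HUG1 in GAL-NMD2 replicate 2 read 35.5 at 0 min, against 3470 to 4422 in the others, and 30.8 at 10 min, against 2783 to 4067. MSC1 in replicate 2 read 520.2 at 10 min, against 768 to 812. MPC3 in replicate 4 read 2057 at 0 min, against 1189 to 1264. ISF1 changed by log2 -1.23 in replicate 1, against -0.58 to -0.68. PGM1 in replicate 4 read 147.9 at 0 min, against 311 to 348. UGP1 in replicate 3 read 1056 at 0 min, against 1253 to 1288. The causes were not tested.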

How the results depend on the processing

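GAL1, GAL2, GAL3, GAL7 and GAL10 were called under all 15 alternatives tried, and GAL80 under 14, all but the fit without the block. No named probe set changed sign where it was called in either fit, and sign changes among uncalled values were not counted separately. Of the values of all named probe sets, 88 lost the call while 856 stayed on their side of the threshold. The 28 calls in GAL-NMD2 became 5 and the 24 in nmd2D 7 with no replicate block, and 12 and 5 with only the arrays compared. Leaving out one replicate gave 6 to 29 calls in GAL-NMD2 and 7 to 19 in nmd2D. In nmd2D the count was 47 (42 higher, 5 lower, against 16 and 8) with arrays centred on the median, 44 (28 and 16) with quantile normalization, 38 without the trend, and, chosen after seeing the data, 48 without the 20 min array of GAL-NMD2 replicate 2, whose median signal was 84.3. The added fit of only the 0 and 10 min arrays of both strains gave 30 calls in GAL-NMD2, 19 of them among the 28. Centring ended the calls of YPR1, COX26 and a UTP20 probe set, and quantile normalization those of YPR1 and of a UTP20 and a TKL2 probe set. The difference between strains gave 0 calls under each alternative, with 99 to 658 at an unadjusted p under 0.05. The cause of these shifts was not tested. With 4 cultures and MAS5 signals, changes under 1.5-fold and probe sets in the dimmest class were rarely or never called.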
